A study of Ovis aries with 7 samples.

Results

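Histone chaperones are proteins that escort histones from their synthesis to DNA and place them into nucleosomes, and replacement variants are histones made outside S phase that take the place of the canonical ones. After fertilization or nuclear transfer the embryo rebuilds its chromatin largely from stored and newly made histones, and H3.3, supplied by chaperones that work without DNA replication, is known to enter parental chromatin early. The genes described here were taken by name, with earlier results of these data known. They are the H3-H4 carriers ASF1A, ASF1B and NASP, the CAF-1 subunits CHAF1A and CHAF1B, and the H3.3 chaperones HIRA, DAXX and ATRX. The H3.3 gene H3F3A and the H2A.Z gene H2AZ1 complete the set. Of these 10 genes, 9 had a row among the 31304 rows of the table, and HIRA was not analysed here.

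Sheep (Ovis aries) embryos were collected when they had 8 cells, and their polyA RNA was amplified and sequenced with Smart-seq2, a full-length method for small RNA inputs. The labels name 4 samples from somatic cell nuclear transfer (SCNT), in which the egg's own nucleus is exchanged for a somatic one, and 3 samples from in vitro fertilization (IVF). Values were used for the 3 IVF libraries only. The other 4 columns of the table are headed DFF, a name no sample label uses, so the SCNT samples were not analysed here and no difference between SCNT and IVF is given. The sources used here give neither breed nor donor cell nor the number of embryos per library. The 3 libraries carry no label that ties them to separate trials, so the spread between them may be partly technical.

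Values are TPM, a measure of transcript abundance that scales by gene length and library total, given as mean ± SD with n = 3. Each library sums to 1000000, so the sequencing depth is unknown, and fewer cells of a type cannot be told apart from less RNA per cell. A gene was counted as detected where no library had less than 1 TPM of it, and log values are log2(TPM + 1). The label was checked against marker genes. Early embryo markers had a summed level of 744 to 2211 TPM, highest in replicate 2, with 6 of 7 detected, and oocyte markers 947 to 1428 TPM with 6 of 8 detected. Fibroblast markers summed to 10.2 to 15.1 TPM with 1 of 8 detected (VIM), cumulus and granulosa markers to 12.7 to 20.0 TPM with 2 of 8 detected (HAS2 and STAR), and sperm markers to 18.8 to 38.1 TPM with 1 of 8 detected (SPACA1). PTX3, PRM1, AKAP4 and ACRBP were listed at 0 in all libraries. For comparison with these counts, 49.0% of 16527 rows with a gene symbol were detected. Over 9822 genes at no less than 1 TPM in any library, ranks correlated across genes at 0.893 (Spearman) between replicates 1 and 2, the pair farthest apart, and at 0.939 and 0.938 between replicate 3 and replicates 1 and 2. Genes are not independent replicates. Among 9191 rows with a gene symbol and a mean level of 1 TPM or above, 48.5% were highest in replicate 2, 35.8% in replicate 1 and 15.7% in replicate 3. Mitochondrially encoded RNA took 2.55, 5.53 and 1.94% of TPM in IVF replicates 1, 2 and 3.

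All 9 measured genes were detected, where 49.0% of 16527 symbol rows were. Their RNA levels spanned a wide range, with H3F3A and H2AZ1 far above the 7 chaperone genes of the set. The median gene of the set stood at 19.8, 18.0 and 17.6 TPM in IVF replicates 1, 2 and 3. The median of their mean levels, 23.4 TPM, compares with 11.2 TPM for all symbols detected in every library and 1.58 TPM for all symbol rows. Together the 9 genes took 1.02% of all TPM, nearly all of it from H3F3A and H2AZ1, while the 7 chaperone genes summed to between 198 and 308 TPM.

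**Figure D1:**
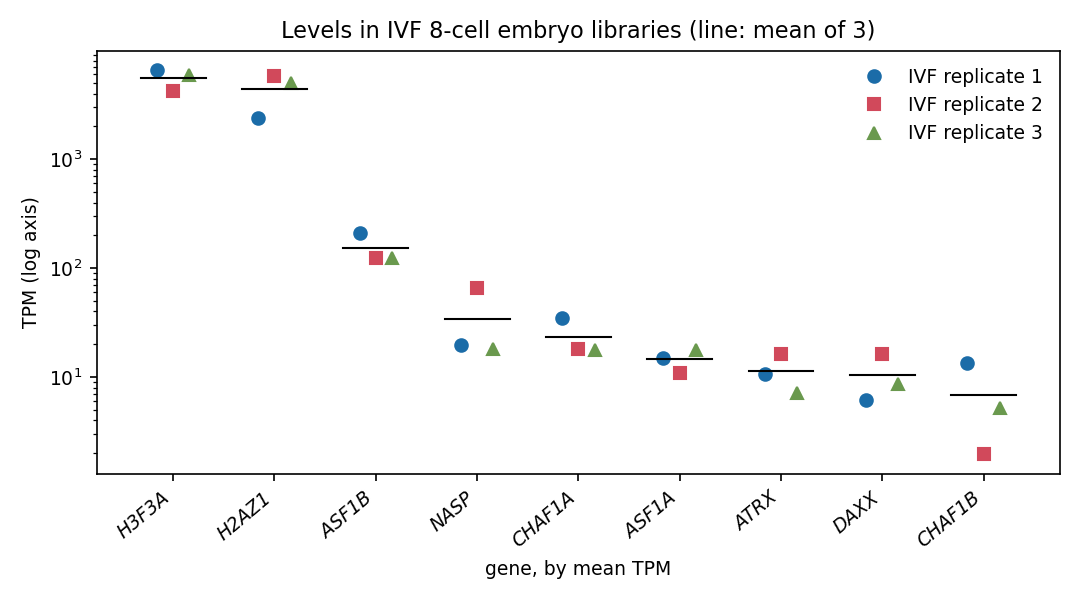
TPM on a log axis for the 9 measured genes in the 3 IVF libraries (points), ordered by mean (line). H3F3A and H2AZ1 lie at 2405 TPM or above in every library, ASF1B lies between 124 and 208 TPM, and the other 6 genes lie at 65.4 TPM or less.

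H3F3A encodes H3.3, the replacement form of histone H3. It was at 6588, 4197 and 5893 TPM in IVF replicates 1, 2 and 3, a mean of 5559 ± 1229.7 TPM. This placed it 11th of 16527 symbol rows by mean level. Replicate 2 was the lowest and replicates 1 and 3 were close to each other. A second gene, H3F3B, encodes the same protein and was not analysed here. H3.3 genes are known in mammals for processed copies of near-identical sequence, and the sources used here do not say how reads shared with such copies were counted, so the level is uncertain to that extent.

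H2AZ1 encodes H2A.Z, the variant of histone H2A found at promoters and regulatory elements. It was at 2405, 5832 and 5017 TPM in IVF replicates 1, 2 and 3, a mean of 4418 ± 1790.4 TPM, 17th among symbol rows. Here replicate 1 was the lowest, so the lowest library was not the same for the 2 histone genes. On the log2 scale H3F3A exceeded H2AZ1 by 1.45 in replicate 1 and 0.23 in replicate 3, and H2AZ1 was the higher by 0.47 in replicate 2. The mean difference, 0.40 ± 0.98, was smaller than its spread, and without replicate 1 it was -0.12.

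ASF1A and ASF1B are paralogs that hold an H3-H4 dimer and pass it on to CAF-1 or to the HIRA complex. ASF1B, the form tied to proliferation in mammalian cells, was at 208, 125 and 124 TPM in IVF replicates 1, 2 and 3, a mean of 152 ± 48.2 TPM. ASF1A was at 15.0, 11.0 and 17.6 TPM, a mean of 14.5 ± 3.34 TPM. The lowest ASF1B value lay above the highest ASF1A value, and the ratio of their means was 10.5. ASF1B exceeded ASF1A by 3.71, 3.39 and 2.75 on the log2 scale in IVF replicates 1, 2 and 3, a mean difference of 3.28 ± 0.49. In the ARS-UI_Ramb_v3.0 gene table ASF1A lies wholly inside the span of MCM9, a helicase gene, which was at 2.35, 2.09 and 1.33 TPM. The sources used here do not say whether the counting used strand, so reads from parts the 2 genes share cannot be assigned with certainty.

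NASP binds H3 and H4 in a soluble store that keeps them from degradation. It was at 19.8, 65.4 and 17.9 TPM in IVF replicates 1, 2 and 3, a mean of 34.3 ± 26.9 TPM. Replicate 2 alone was high, the mean without it being 18.8 TPM, and the other libraries were near the level of ASF1A. NASP exceeded ASF1A by 0.38, 2.47 and 0.02 on the log2 scale in the same order. The mean difference of 0.96 ± 1.32 was smaller than its spread, and without replicate 2 it was 0.20.

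CHAF1A and CHAF1B are the large and middle subunits of CAF-1, which deposits H3-H4 behind the replication fork. CHAF1A was at 34.6, 18.0 and 17.6 TPM in IVF replicates 1, 2 and 3, a mean of 23.4 ± 9.70 TPM. CHAF1B was at 13.5, 1.95 and 5.17 TPM, a mean of 6.87 ± 5.95 TPM. That mean was the lowest of the 9 genes, but it was 3.56 TPM without replicate 1, and 9.33 TPM without replicate 2, where it lay above ATRX (8.89 TPM) and DAXX (7.42 TPM). Replicate 1 was the highest for each subunit. CHAF1B was below CHAF1A in all 3 libraries, by -1.30, -2.69 and -1.59 on the log2 scale, a mean of -1.86 ± 0.73. RBBP4, the small subunit of CAF-1 and also part of other chromatin complexes, was at 416, 181 and 299 TPM, likewise highest in replicate 1 and lowest in replicate 2.

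DAXX and ATRX place H3.3 at telomeres and repeats, DAXX as the histone chaperone and ATRX as the motor protein that brings it there. DAXX was at 6.16, 16.2 and 8.67 TPM in IVF replicates 1, 2 and 3, a mean of 10.3 ± 5.22 TPM. ATRX was at 10.7, 16.2 and 7.11 TPM, a mean of 11.3 ± 4.59 TPM. The genes had nearly the same level in replicate 2, where each was highest. DAXX minus ATRX was -0.70, 0.00 and 0.25 on the log2 scale in IVF replicates 1, 2 and 3, a mean of -0.15 ± 0.50, and 0.13 without replicate 1. In the gene table DAXX overlaps SMIM40, which had at most 0.0999 TPM, and ATRX overlaps 2 loci that were not analysed here.

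In order of mean level the genes ran H3F3A, H2AZ1, ASF1B, NASP, CHAF1A, ASF1A, ATRX, DAXX and CHAF1B. Of the 8 steps between neighbours, 2 were larger than their spread and had the same sign in all 3 libraries. H2AZ1 exceeded ASF1B by 4.79 ± 1.10, and ASF1B exceeded NASP by 2.33 ± 1.25 on the log2 scale. Among the 6 genes from NASP down to CHAF1B, none of the 5 steps met both conditions. CHAF1A minus ASF1A, at 0.61 ± 0.58, exceeded its spread but was 0.00 in replicate 3. Over all 36 combinations of the 9 genes, 27 differences exceeded their spread with one sign, and 28 had the same order in all 3 libraries. ASF1B held the third place in every library, whereas ASF1A held the 6th, 8th and 5th place in IVF replicates 1, 2 and 3. No test is given for these differences: with 3 libraries, exact sign flipping (two-sided) reaches no p below 0.25.

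**Figure D2:**
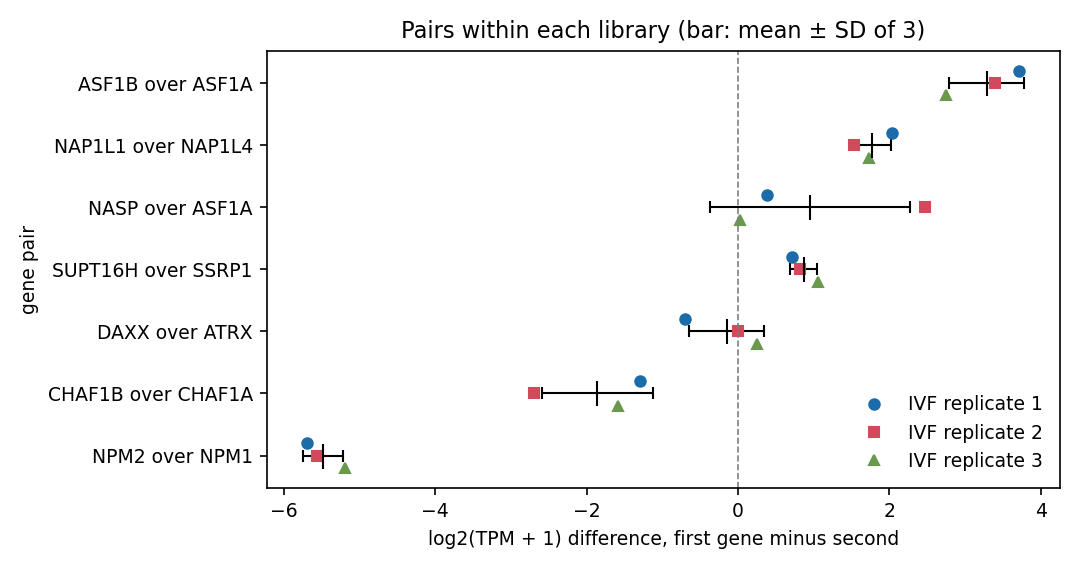
Difference of log2(TPM + 1) between 7 gene pairs in the 3 IVF libraries (points), with mean and SD (bar). ASF1B over ASF1A lies at 2.75 or more in every library and CHAF1B over CHAF1A at -1.30 or below, while DAXX over ATRX straddles 0.

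The 9 genes differed in which library was highest. H3F3A, ASF1B, CHAF1A and CHAF1B were highest in replicate 1, and NASP, DAXX, ATRX and H2AZ1 in replicate 2. ASF1A was highest in replicate 3. Of symbol rows with a mean of 1 TPM or above, 35.8, 48.5 and 15.7% were highest in replicates 1, 2 and 3. Replicate 2 against the mean of replicates 1 and 3 gave 1.74 for NASP, 1.05 for DAXX, 0.82 for ATRX and 0.75 for H2AZ1 on the log2 scale. The same difference was -1.68 for CHAF1B, -0.57 for H3F3A, -0.53 for ASF1A, -0.44 for CHAF1A and -0.36 for ASF1B. Thus 4 of 9 genes were higher in replicate 2, with a median of -0.36, where 61.0% of 9191 symbol rows were higher, with a median of 0.18. Other values were also highest in replicate 2. The mitochondrial share was given above, and the early embryo markers summed to 744, 2211 and 973 TPM in IVF replicates 1, 2 and 3, all 7 measured markers being highest in replicate 2. Of the other markers, 6 of 8 fibroblast, 5 of 8 cumulus and granulosa and 4 of 8 oocyte markers were highest there too. For sperm markers it was 2 of 8, and for symbol rows 48.5% as given above. These marker counts are for TPM without further scaling. The part of the mitochondrial share or of the markers in these differences was not tested.

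The highest library was at least 2-fold above the lowest, on TPM + 1, for 5 of 9 genes, against 29.0% of symbol rows whose mean was 1 TPM or above. The ratio was 4.91 for CHAF1B, 3.51 for NASP, 2.42 for H2AZ1, 2.40 for DAXX and 2.12 for ATRX. The median ratio over the 9 genes was 2.12, against 1.67 over those rows. Leaving out a library cannot raise the ratio of any gene. With a library left out, the count, like the share of rows, could only stay or fall. It was 3 without replicate 1 (ATRX, CHAF1B and NASP, with 11.0% of rows), 2 without replicate 2 (CHAF1B and H2AZ1, with 8.45%) and 4 without replicate 3 (with 22.2%). CHAF1B was the only gene of the 9 counted in all 3 of these settings. Scaling by the median of ratios lowered all genes of replicate 2 by 0.25 on the log2 scale and raised those of replicates 1 and 3 by 0.07 and 0.14. The count was again 5 under it, but 3 genes were shared (CHAF1B, H2AZ1 and NASP), ASF1B and CHAF1A replacing ATRX and DAXX. ASF1A, DAXX and H3F3A then lay just below 2-fold, at 1.99, 1.96 and 1.96. The share of symbol rows at 2-fold under that scaling is not given, so this count has no background. Under that scaling H2AZ1 was highest in replicate 3, and the other 8 genes kept their highest library. The lowest library of ASF1B and CHAF1A was replicate 3 in TPM and replicate 2 under that scaling.

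**Figure D3:**
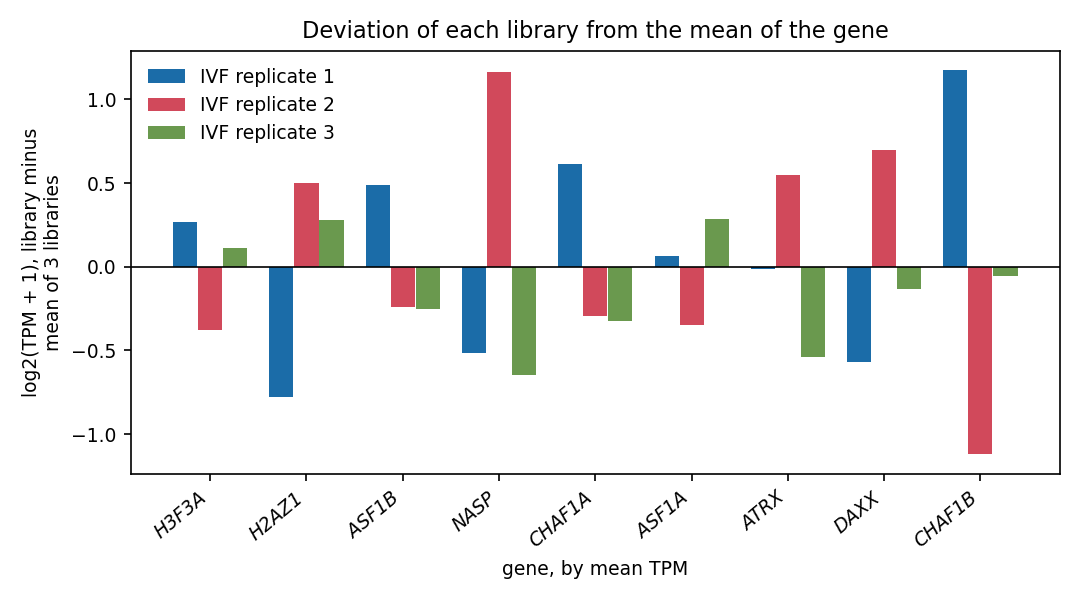
Log2(TPM + 1) of each IVF library minus the mean of the 3 libraries, for the 9 measured genes. Bars for replicate 2 point up for H2AZ1, NASP, ATRX and DAXX and down for H3F3A, ASF1B, CHAF1A, ASF1A and CHAF1B.

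A further 47 genes that make up the surrounding pathway were listed by role. Of these, 37 had a row and 36 were detected, where 49.0% of all symbol rows were. The exception was CABIN1, a subunit of the HIRA complex, at 1.34, 0.331 and 1.36 TPM in IVF replicates 1, 2 and 3. Their median mean level was 11.7 TPM. Among them 7 of 37 were at least 2-fold apart between libraries, against the 29.0% of symbol rows given above. The 10 others, H3F3B, H2AZ2, NPAT and 7 further histone variant genes, were not analysed here.

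Among H3-H4 carriers HAT1, the acetyltransferase that marks new H4, was the most abundant at 354 ± 64.2 TPM. The importin IPO4 was at 8.05 ± 1.93 TPM, the co-chaperone DNAJC9 at 8.02 ± 3.38 TPM and CDAN1, a partner that holds ASF1 in the cytoplasm, at 2.37 ± 1.47 TPM. All 7 carriers in the list were detected, against 49.0% of symbol rows. Genes that handle H3-H4 at the fork were low apart from RBBP4 and CHAF1A. MMS22L was at 8.70 ± 1.67 TPM, the helicase subunit MCM2 at 2.77 ± 2.2 TPM and TONSL, a reader of new H4, at 1.95 ± 0.337 TPM. In this list 5 of 6 genes were highest in replicate 1, against 35.8% of symbol rows, and 4 of 6 under the median of ratios, against 40.4%.

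The measured partners of HIRA had means of 10.6 TPM (UBN1), 5.22 TPM (UBN2) and 1.01 TPM (CABIN1). The median over all symbols detected in every library was 11.2 TPM. UBN1, which binds H3.3 in the HIRA complex, was at 8.48, 13.3 and 10.1 TPM in IVF replicates 1, 2 and 3, and its paralog UBN2 at 4.90, 7.40 and 3.37 TPM. UBN1 lay above DAXX in replicates 1 and 3 and above ATRX in replicate 3 only. UBN2 and CABIN1 lay below DAXX and ATRX in every library.

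Factors that exchange H2A.Z had mean levels from 5.18 TPM (EP400) to 753 TPM (ZNHIT1). ZNHIT1, VPS72 and YEATS4, small subunits of the SRCAP and related complexes, were at 753 ± 194, 331 ± 133 and 106 ± 30.7 TPM. VPS72 is the subunit that binds H2A.Z itself. The large motor subunits SRCAP and EP400 were at 5.53 ± 1.30 and 5.18 ± 1.80 TPM. INO80 was at 13.5 ± 4.28 TPM and ANP32E, the chaperone that removes H2A.Z, at 11.7 ± 4.54 TPM. All 7 lay below H2AZ1 in every library. With H2AZ1, 5 of 8 genes in this list were highest in replicate 2, against 48.5% of symbol rows. Under the median of ratios it was 3 of 8, against 31.4%.

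FACT is a dimer that opens nucleosomes for polymerases. Its subunits SUPT16H and SSRP1 were at 64.2 ± 17.9 and 34.7 ± 10.2 TPM, and SUPT16H exceeded SSRP1 by 0.87 ± 0.18 on the log2 scale in 3 of 3 libraries. The transcription-linked chaperones SUPT6H and SPTY2D1 were at 10.8 ± 5.88 and 10.2 ± 4.34 TPM. All 4 were highest in replicate 2, where 48.5% of symbol rows were, and all 4 also under the median of ratios, where 31.4% of symbol rows were.

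Chaperones of H2A-H2B and of the nucleoplasmin family included the most abundant chaperone genes measured, SET and NPM1. SET, which binds histones and inhibits their acetylation, was at 797, 2286 and 966 TPM in IVF replicates 1, 2 and 3, with replicate 2 high. NPM1 was at 535 ± 71.2 TPM and nucleolin (NCL) at 181 ± 45.0 TPM. The family member NPM3 was at 8.67 ± 1.07 TPM. NPM2, the form of nucleoplasmin stored in eggs, was at 11.2 ± 3.16 TPM, below NPM1 by -5.48 ± 0.26 on the log2 scale. The nucleosome assembly gene NAP1L1 was at 86.8 ± 7.39 TPM and exceeded its paralog NAP1L4, at 24.9 ± 2.79 TPM, by 1.76 ± 0.26. In this list 5 of 7 genes were highest in replicate 2, against 48.5% of symbol rows. Under the median of ratios it was 2 of 7, against 31.4%.

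CENPA, the H3 variant of centromeres, was at 389, 140 and 255 TPM in IVF replicates 1, 2 and 3. Its chaperone HJURP had the same highest and lowest library but varied less, at 117 ± 16.2 TPM. OIP5 and MIS18A of the licensing complex were at 41.0 ± 8.67 and 3.60 ± 0.996 TPM. SLBP, the stem-loop binding protein of replication-dependent histone mRNA, was at 169 ± 38.0 TPM. The other genes for processing these mRNAs were lower, with LSM10 at 21.1 ± 7.79, ZNF473 at 7.45 ± 3.99 and LSM11 at 5.24 ± 2.02 TPM.

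**Figure D4:**
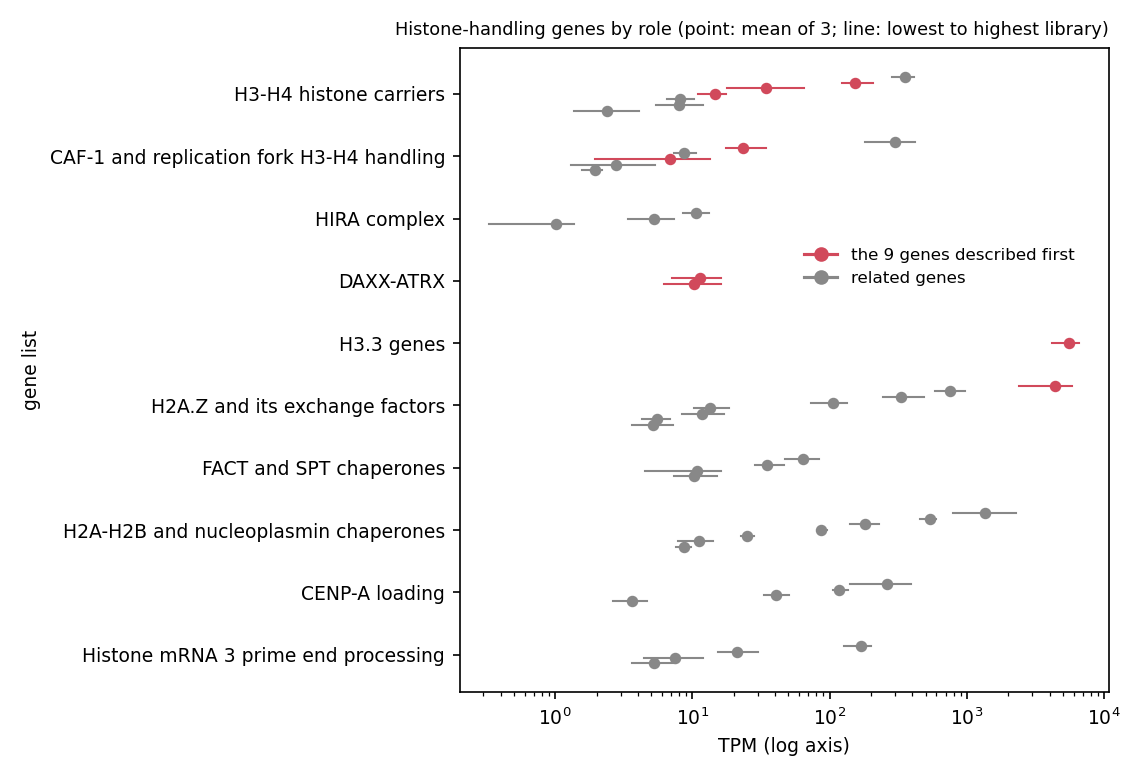
Mean TPM on a log axis for the 9 genes (red) and 37 related genes (grey), grouped by role; lines run from the lowest to the highest of the 3 IVF libraries. H3F3A and H2AZ1 lie farthest right, and SET, at a mean of 1349.7 TPM, is the highest of the related genes.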

How the data were processed

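The authors deposited one table of TPM with 31304 rows. The submitters' processing notes list fastp 0.23.4 (a read trimmer) and HISAT2 2.2.1 (an aligner) beside mouse and pig builds. Nothing used here states the sheep build, the annotation or the counting tool, so how multi-mapped or overlapping reads entered the TPM values is not known. Columns were matched to samples by name: 3 bear the titles of IVF samples, and the other 4 columns of per-sample values match no label and were not used. Because TPM keeps no depth, no interval or detection floor is given.

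From these values were computed means, SDs, ranks among 16527 rows with a gene symbol, and log2 differences with a pseudocount of 1. A difference was called beyond its spread where it exceeded 1 SD and kept one sign in 3 of 3 libraries. How often this rule errs was not tested. No test between groups was made. The genes and lists were chosen with earlier results of these data known. All 10 genes are named, and of the related genes those in a fixed pair or among the 4 highest per list, with the remaining detected members given for completeness. One further related gene was left out of the lists and is not reported here. The ARS-UI_Ramb_v3.0 gene table, which matched 28862 rows by symbol, supplied aliases and overlapping genes. The tools were Python 3.11.15 with pandas 2.3.3, numpy 2.4.6 and matplotlib 3.10.9.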

Additional observations from a re-analysis of the deposited data

How the results depend on the processing

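No paired analysis was possible because only IVF libraries were used. Of 12 gene pairs listed, 7 could be measured. Removing mitochondrially encoded and ribosomal protein genes scaled all genes up and moved the mean of the library medians of the 9 genes to 22.3 TPM, against 18.5, a value of 17.8 to 18.9 with 1 library left out. The 9 genes detected at 1 TPM were 8 at 5 TPM and 6 at 10 TPM. The share of symbol rows at 5 and 10 TPM is not given, so the counts at these thresholds have no background. The genes at least 2-fold apart between libraries, 5, were 2 to 4 with 1 library left out, a count that cannot rise in this way. These settings were chosen after seeing the data. Leaving out a library turned 5 neighbour differences, none beyond its spread: H3F3A minus H2AZ1 (-0.12) and ATRX minus DAXX (-0.13) without replicate 1, NASP minus CHAF1A (-0.38) and DAXX minus CHAF1B (-0.18) without replicate 2, and ASF1A minus ATRX (-0.03) without replicate 3. DAXX minus ATRX, the same values read as a pair, ranged from -0.35 to 0.13. ASF1B minus ASF1A ranged from 2.98 to 3.55 and CHAF1B minus CHAF1A from -2.14 to -1.33 over pseudocounts and libraries left out. Of 55 levels, counts and differences under other pseudocounts, thresholds and scalings, 53 moved by less than 1 SD between libraries or, for counts, by at most 1.5 times. The other 2 moved by more than 1 SD, namely the library medians after removal given above and NPM2 minus NPM1, at -5.07 with a pseudocount of 5. Ranks fall when only detected symbols are ranked, as that background sets: CHAF1B went to percentile 37.3 and ASF1B to 91.5.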

Other observations

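Rows of other histone genes were chosen after their values were seen. The linker histone gene H1-4 was at 60.1, 29.1 and 34.6 TPM in IVF replicates 1, 2 and 3, and H1-2 at 5.04, 11.0 and 9.53 TPM. H1-1 was at 3.75 ± 0.511 TPM, and H1-6, known from the testis, at 1.49 ± 0.823 TPM. H1-5, at 1.03 ± 0.837 TPM, lies wholly inside another gene. H3-4 stood at 0.348 ± 0.0881 TPM. Replication-dependent histone mRNAs mostly end in a stem-loop and carry no polyA tail, and how far polyA selection lowered these values was not tested.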
